A study of Petromyzon marinus with 12 samples.

Results

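The genes described here encode proteins of the centrosome and the centriole, followed through 4 stages of the sea lamprey endostyle. They were chosen by name alone, as rows of the gene table whose symbol begins like that of a known centrosome or centriole gene (CEP, HAUS, TUBG, TUBGCP, NEK and CETN with a number or suffix, and single names such as PCM1, STIL and NEDD1). The name rule took 46 of 21967 rows. It also took AZI2, which by its known function is an adaptor of innate immune signalling and not a centrosome gene.

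A centriole is a short barrel of microtubules. A pair of centrioles with the surrounding protein matrix forms the centrosome, which duplicates along with the DNA and organises the poles of the mitotic spindle. In a cell that carries a cilium, the older centriole docks at the cell surface through its appendages and becomes the basal body from which the axoneme grows, and a multiciliated cell makes many centrioles without dividing. The endostyle, a gland below the pharynx of the lamprey larva, is known to contain both ciliated and secretory cells.

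Bulk RNA of wild-type (WT) Petromyzon marinus endostyle was sequenced in 3 libraries at each of 4 stages, named T27 to T30. No treatment other than stage is given, and the labels do not say what the stage numbers stand for in days or length. Nor do they give the origin of the replicates (animals, pools or repeats), so each p reflects the variation among these libraries, possibly technical. Library totals ran from 28371140 to 36032488 counts. Levels are given as CPM, a gene's count scaled to the size of its library, after TMM scaling, which keeps a few very abundant genes from setting that size. A gene is said to have risen or fallen where edgeR's quasi-likelihood test over all 16526 genes tested gave a Benjamini-Hochberg adjusted p under 0.05. All 46 genes passed the filter on low counts, and the lowest count of any of them in any library was 40.

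The endostyle label was checked on thyroid and endostyle markers. Of 12 markers listed, TG, DUOX1, DUOX2, SLC26A4, PAX8, NKX2-1 and FOXE1 had no row under the name. SLC5A5, IYD, PAX2 and HHEX were detected. All 4 rose between T27 and T30, where 34.8% of all genes tested did. PAX2 had first fallen between T28 and T29 (log2 change −0.53, SE 0.08, edgeR adjusted p 0.000984). HHEX had means of 84.6, 78.2 and 65.3 CPM at T27, T28 and T29, before 109 CPM at T30. Neither early step of HHEX was called (edgeR adjusted p 0.444 and 0.111). SLC5A5 rose at every step, through means of 5.93, 9.23, 15.15 and 105.6 CPM. IYD, at 40.6, 43.0, 40.9 and 93.3 CPM, was called at the last step only. The first principal component of all genes held 68.5% of the variance and placed T27 replicate 1 at −58.1, between the other T27 libraries (−77.5 and −80.2) and the T28 libraries (−32.5 to −28.4). Markers of other tissue also moved with stage. Summed over 6 muscle genes, of 10 listed, the level was 103.8 to 139 CPM at T27, 167 to 274 CPM at T28, 396 to 507 CPM at T29 and 632 to 1132 CPM at T30, and 6 of 6 rose over the span. Summed over 4 connective tissue genes, of 9 listed, it was 1260 to 1377 CPM at T27, 868 to 961 CPM at T28, 672 to 873 CPM at T29 and 341 to 379 CPM at T30. Over the span 4 of 4 fell, where 34.1% of all genes tested did. None of these markers was at 0 in every library, and their part in the results below was not tested. In bulk RNA, fewer cells of a type and less RNA per cell cannot be told apart.

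The summed level of the 46 centrosome and centriole genes was highest at T28 and lowest at T30. It was 2271 to 2401 CPM at T27, 2981 to 3077 CPM at T28, 2614 to 2878 CPM at T29 and 2018 to 2200 CPM at T30, and no pair of stages overlapped. Of the difference between the means of T28 and T27, 697 CPM, PCM1, CEP128 and NEK2 held 353 CPM, or 50.6%, genes named here after their values were seen. Of the 46 genes, 23 had their highest mean at T28 and 4 at T29, against 9.41% and 16.9% of all genes tested. A further 12 were highest at T27 and 7 at T30, against 33.6% and 40.1% of all genes tested. In all, 44 of 46 changed between any stages, where 76.8% of all genes tested did. The median level was 40.1 CPM over the 46 genes and 18.6 CPM over all genes. The part of this difference in the shares given here and below was not tested.

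Between T27 and T28, 22 of the 46 genes rose and 3 fell, 25 in all. Among all genes tested, 14.3% rose and 11.8% fell, or 26% in all. The median log2 change was 0.26 over the 46 genes and −0.02 over all genes tested. The libraries of both stages did not overlap in 31 of the 46, or 67.4%, where this held for 45.8% of all genes.

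Between T28 and T29, 0 rose and 11 fell, against 7.86% and 5.54% of all genes tested, or 13.4% in all. The stages did not overlap in 26 of the 46, or 56.5%, beside 34% of all genes. At an unadjusted p under 0.05, edgeR placed 2 genes higher at T29 (SSNA1 and CEP112) and 18 lower. DESeq2 with adjustment placed 0 higher and 12 lower. Shares of all genes by these other criteria are not given here, so these counts have no background beside them. The median log2 change was −0.18, and −0.01 over all genes. The count of falls rested on single libraries: it was 6 without T28 replicate 1, 5 without T28 replicate 2 and 5 without T29 replicate 1. Without T30 replicate 1 or T30 replicate 2, which enter the estimate of the spread, 1 gene rose at this step (SSNA1, edgeR adjusted p 0.0296 and 0.0353).

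Between T29 and T30, 32 fell and 6 rose, 38 in all, where 30.1% of all genes fell and 30.3% rose, or 60.3% in all. The stages did not overlap in 39 of the 46, or 84.8%, beside 63.4% of all genes. The median log2 change was −0.72, and 0.02 over all genes. At T30 against T27, 29 were lower and 12 higher, 41 in all, against 34.1%, 34.8% and 68.8% of all genes. The median log2 change was −0.53 beside 0.01 over all genes, and the stages did not overlap in 42 of the 46, or 91.3%, beside 71.5%. Comparisons that follow one another share the libraries of the stage between them, whereas the first step (T27 to T28) and the last step (T29 to T30) share none.

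**Figure D1:**
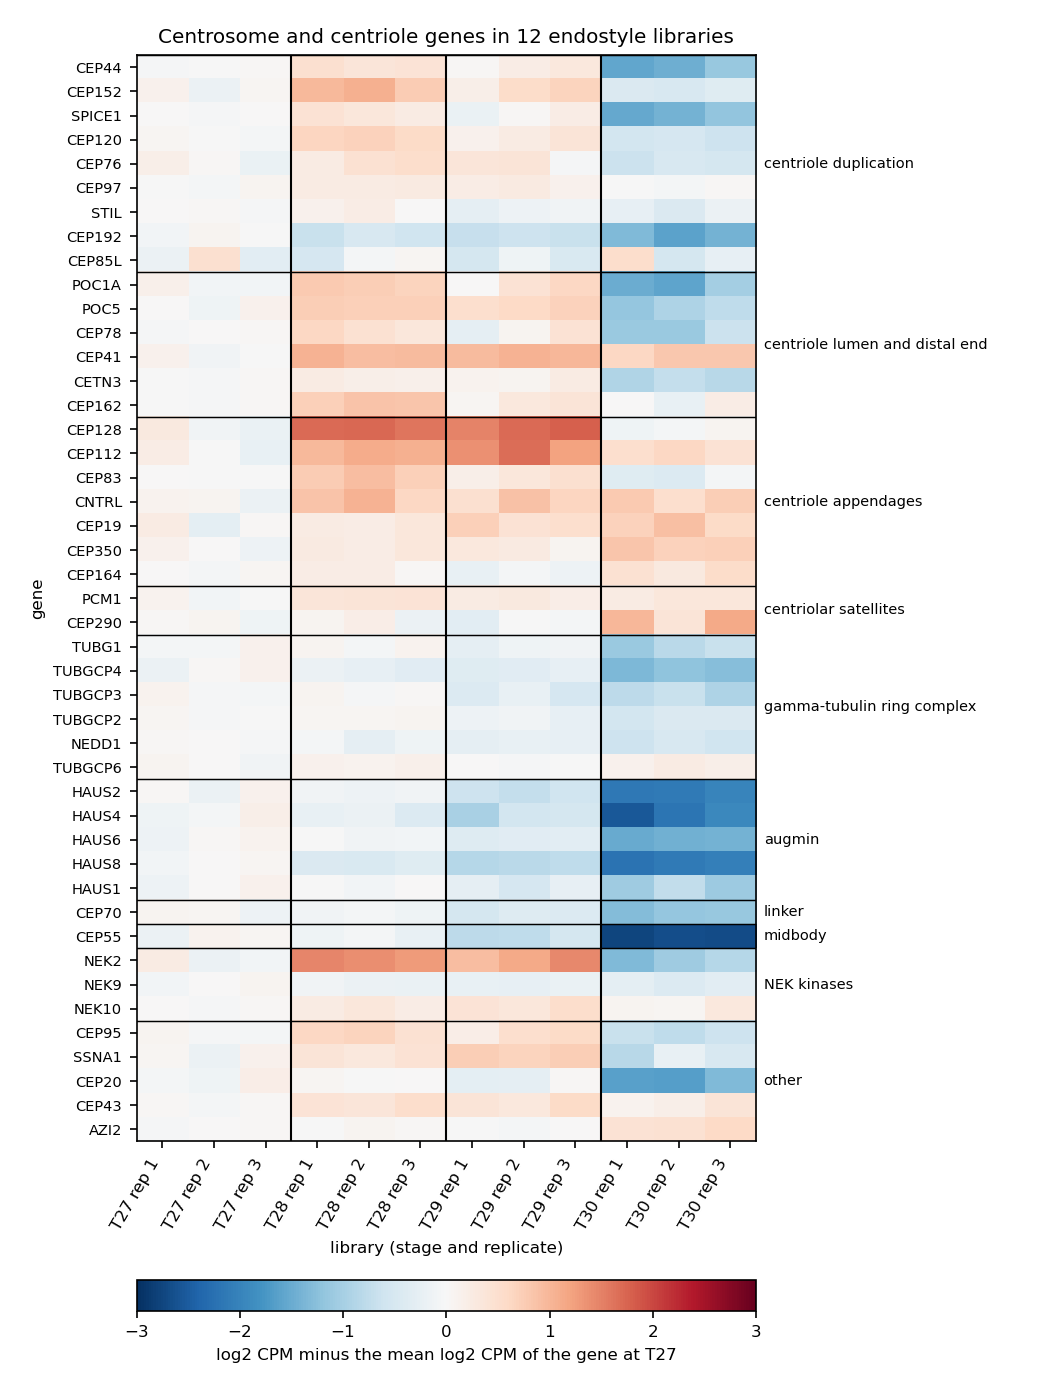
Each row is a gene, grouped by role, with 45 of the 46 shown, and each column a library. Colour gives log2 CPM minus the gene's mean log2 CPM at T27, on a scale that runs from −3 to 3. The T28 columns are red for most genes of duplication, lumen and appendages, and the augmin rows turn blue, most deeply at T30.

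The counts by role that follow stand beside shares of all genes tested. These were 14.3% higher and 11.8% lower at the first step and 7.86% and 5.54% at the middle step. They were 30.3% and 30.1% at the last, and 34.8% and 34.1% at T30 against T27. Of 9 genes with a row listed under centriole duplication, 5 rose and 1 fell at the first step. At the middle step 0 rose and 3 fell, and at the last 0 rose and 7 fell. CEP152, which brings the kinase PLK4 to the parent centriole, was at 42.7, 34.6 and 40.9 CPM in the T27 libraries and at 77.6, 82.8 and 66.5 CPM at T28. It was at 44.6, 57.8 and 62.0 CPM at T29 and at 29.2, 28.3 and 30.4 CPM at T30. Every T28 library lay above every library of the other stages, and every T30 library below. CEP152 rose 1.92-fold at the first step (log2 0.94, SE 0.12, edgeR adjusted p 8.09e-05), from 39.4 ± 4.24 to 75.7 ± 8.32 CPM (SD, n = 3). At the last step its log2 change was −0.90 (SE 0.12, edgeR adjusted p 1.59e-05), to 29.3 ± 1.07 CPM. Its fall at the middle step (log2 −0.46) was not called when T28 replicates 1 or 2 or T29 replicate 1 were left out (edgeR adjusted p 0.067 to 0.0836).

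CEP192, a scaffold for PLK4 and for the pericentriolar matrix at mitosis, took another course. It stood at 31.4, 35.5 and 33.2 CPM at T27, at 21.0, 23.9 and 22.2 CPM at T28, at 20.8, 21.7 and 21.0 CPM at T29 and at 13.3, 10.97 and 12.4 CPM at T30. The T27 libraries were highest and the T30 libraries lowest, and T28 and T29 overlapped. It fell by 0.58 on the log2 scale at the first step (SE 0.10, edgeR adjusted p 0.000624) and by 0.79 at the last (SE 0.10, edgeR adjusted p 8.94e-06). STIL, which starts the new centriole together with PLK4, was at 63.8, 63.9 and 60.9 CPM at T27 and at 68.7, 73.2 and 62.9 CPM at T28. It was at 52.5, 56.5 and 58.7 CPM at T29 and at 53.2, 46.3 and 55.9 CPM at T30. The T29 and T30 libraries all lay below those of T27 and T28. STIL was called lower at T30 than at T27 (log2 −0.28, SE 0.08, edgeR adjusted p 0.00765), and at neither the first nor the last step. Its call at the middle step (log2 −0.29) was lost when T28 replicates 1 or 2, or T29 replicates 1 or 2, were left out (edgeR adjusted p 0.076 to 0.148).

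The other genes listed under duplication were CEP120, CEP44, SPICE1, CEP97, CEP76 and CEP85L. CEP120, needed for centriole elongation, rose 1.55-fold to 36.8 ± 1.58 CPM at T28 and ended at 16.2 ± 0.697 CPM (SD, n = 3) at T30. Its middle fall (log2 −0.38) was not called without T28 replicate 2 or T29 replicate 1 (edgeR adjusted p 0.0662 at most). CEP44, which helps a new centriole mature into a centrosome, and SPICE1, of centriole duplication and spindle assembly, rose 1.34-fold and 1.27-fold at the first step and fell by 1.57 and 1.40 on the log2 scale at the last. The CEP44 rise was not called without T27 replicate 2 or T28 replicate 1 (edgeR adjusted p 0.0563 to 0.062). The SPICE1 rise was lost without any 1 of the 6 T27 and T28 libraries (edgeR adjusted p 0.0523 to 0.121). CEP97, a cap protein of the distal end, stayed within 74.5 to 94.4 CPM in all libraries. It rose 1.19-fold and then fell by 0.22 on the log2 scale, and its rise had edgeR adjusted p 0.0551 without T27 replicate 2. CEP76, which limits duplication, did not pass the test at the first step (log2 0.41, edgeR adjusted p 0.0545) and fell by 0.81 at the last. CEP85L had the lowest level per length of the 46, between 1.26 and 2.61 CPM, and was called in no comparison.

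NEK2, the kinase that releases the link between the centrosomes as a cell enters mitosis, rose and then fell to below its starting level. Its levels were 61.6, 45.8 and 49.3 CPM at T27, 144, 137 and 126 CPM at T28, 99.0, 115 and 142 CPM at T29, and 20.8, 24.8 and 28.85 CPM at T30. All T28 and T29 libraries lay above all T27 libraries, and all T30 libraries below them. NEK2 rose 2.60-fold at the first step (log2 1.38, SE 0.14, edgeR adjusted p 1.89e-05), from 52.2 ± 8.28 to 135.7 ± 8.96 CPM (SD, n = 3). At the last step it fell by 2.26 on the log2 scale (SE 0.15, edgeR adjusted p 1.4e-08), from 118.5 ± 21.7 to 24.8 ± 4.04 CPM. NEK2 lies on the plus strand of sequence NC_046099.1 of the kPetMar1 assembly, from 7764582 to 7776814, and each value is a sum over a gene's annotated exons. Of its exon bases 13.2% overlap a gene on the opposite strand, LOC116947834, and counting without strand cannot tell reads of the shared bases apart. LOC116947834 held 1468 counts in all libraries together, beside 32983 for NEK2. Here and below, such counts are totals over whole genes and do not measure the reads of the shared bases.

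The other NEK kinases with a row moved less. NEK9, a mitotic kinase in other vertebrates, was at 84.5 ± 4.76 CPM at T27 and 66.8 ± 2.61 CPM (SD, n = 3) at T30, and it fell over the span (log2 −0.34, edgeR adjusted p 0.000295) while no single step was called. NEK10, which human airway cells need for motile cilia, rose from 91.7 ± 2.57 to 110.7 ± 4.70 CPM at the first step and fell from 123.3 ± 7.45 to 101.7 ± 10.1 CPM at the last. Its rise was not called without T27 replicate 2 or T28 replicate 2 (edgeR adjusted p 0.0712 to 0.0733). In NEK10 the T27 and T30 stages were not distinguished by the test (log2 0.15, SE 0.08, edgeR adjusted p 0.0972).

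**Figure D2:**
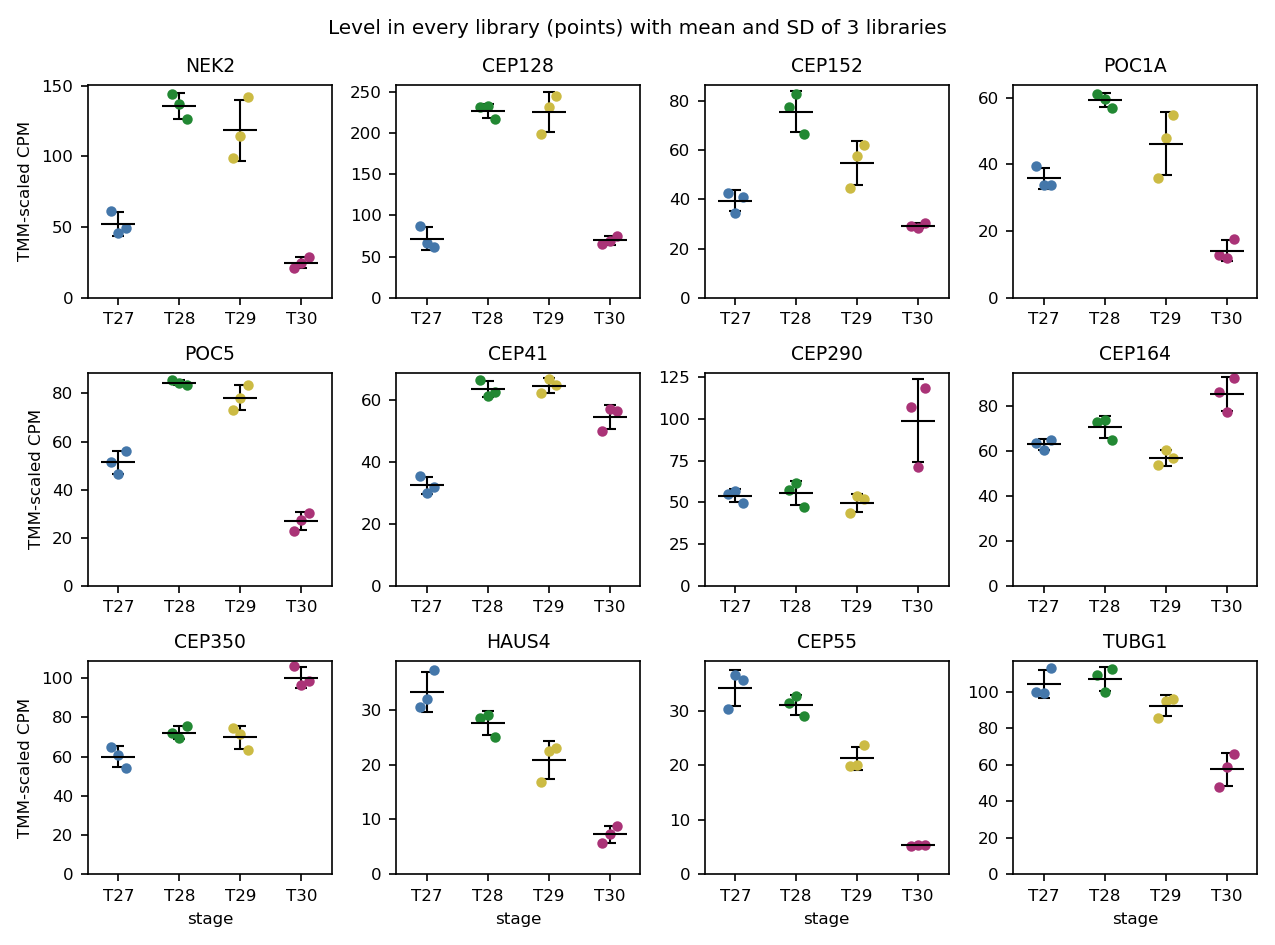
Each panel shows a gene, with TMM-scaled CPM on the vertical axis from 0 and the stage on the horizontal axis. Points are libraries, and the bar and whiskers are the mean and SD of 3. NEK2, CEP128, CEP152, POC1A and POC5 are high at T28 and low at T30, CEP41 stays high, CEP290, CEP164 and CEP350 are highest at T30, and HAUS4, CEP55 and TUBG1 are lowest at T30.

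Proteins of the centriole lumen and distal end had 7 genes, of which 6 rose and 0 fell at the first step (median log2 change 0.72) and 1 rose and 5 fell at the last. POC1A, which stabilises the centriole wall from inside, was at 39.5, 33.9 and 33.9 CPM at T27, 61.3, 59.6 and 56.9 CPM at T28, 36.02, 47.9 and 54.8 CPM at T29, and 12.7, 11.9 and 17.7 CPM at T30. T29 was the most scattered stage, with replicate 1 within the T27 range and replicate 3 near T28. POC1A rose 1.66-fold (log2 0.73, SE 0.15, edgeR adjusted p 0.00265) and then fell by 1.72 on the log2 scale (SE 0.16, edgeR adjusted p 3.92e-07). POC5, of the inner scaffold of the centriole, rose from 51.4 ± 4.78 to 84.4 ± 1.03 CPM and fell from 78.2 ± 5.23 to 26.8 ± 3.73 CPM (SD, n = 3).

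CETN3, a calcium-binding centrin, did not pass the test at the first step (log2 0.19, SE 0.07, edgeR adjusted p 0.0574), although the libraries did not overlap. Its values were 132, 129 and 136 CPM at T27, 157, 149 and 146 CPM at T28, 141, 139 and 156 CPM at T29, and 70.9, 80.6 and 74.3 CPM at T30. The T30 libraries stood apart, and T29 overlapped T28. CETN3 fell by 0.95 on the log2 scale at the last step (SE 0.07, edgeR adjusted p 4.4e-08). With DESeq2 the first step was called for CETN3 (adjusted p 0.0438) and for CEP76 (adjusted p 0.0344).

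CEP162, which marks the distal end where the axoneme will grow, was highest at T28 and lower at T29 and T30. It was at 30.9, 30.4 and 32.2 CPM at T27, 51.4, 56.7 and 55.7 CPM at T28, 32.3, 38.75 and 40.8 CPM at T29, and 31.6, 26.8 and 36.2 CPM at T30. The T28 libraries lay above all others, and T30 overlapped both T27 and T29. It rose 1.75-fold at the first step (edgeR adjusted p 0.000131) and fell by 0.55 at the middle step (SE 0.11, edgeR adjusted p 0.00479), and T30 against T27 gave a log2 change of 0.02 (SE 0.11, edgeR adjusted p 0.91). Of its exon bases 10.3% overlap FBXL22 on the opposite strand, which held 627 counts beside 15314.

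CEP41, a gene of tubulin glutamylation in cilia, stayed high after its rise. It was at 35.2, 29.96 and 31.9 CPM at T27, 66.4, 61.3 and 62.4 CPM at T28, 62.1, 66.8 and 64.5 CPM at T29, and 49.9, 56.8 and 56.4 CPM at T30. T30 lay between T27 and the middle stages with no overlap. CEP41 rose 1.96-fold (log2 0.97, SE 0.08, edgeR adjusted p 6.66e-06) and remained 1.68-fold higher at T30 than at T27 (edgeR adjusted p 8.22e-07). Its fall at the last step (log2 −0.25) was not called without T30 replicate 1 (edgeR adjusted p 0.0702). CEP78 rose 1.39-fold and fell by 1.05 on the log2 scale, and the rise was lost without any 1 of the 3 T27 libraries, T28 replicate 1 or T28 replicate 2 (edgeR adjusted p 0.0792 to 0.129).

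Of 7 genes listed with the centriole appendages, 5 were higher and 1 lower at T30 than at T27, beside 34.8% and 34.1% of all genes. At the first step 5 rose and 0 fell (median log2 change 0.81), and at the last 2 rose and 3 fell. CEP128, of the subdistal appendages, which anchor microtubules, was at 87.1, 66.6 and 62.0 CPM at T27, 232, 233 and 217 CPM at T28, 199, 232 and 246 CPM at T29, and 65.1, 68.6 and 74.96 CPM at T30. The middle stages lay far above both ends, which overlapped. CEP128 rose 3.16-fold at the first step (log2 1.66, SE 0.12, edgeR adjusted p 3.18e-06), more than any other of the 46 genes, and fell by 1.70 at the last (SE 0.12, edgeR adjusted p 2.1e-08). T30 and T27 differed by a log2 change of −0.05 (SE 0.11, edgeR adjusted p 0.72). CEP128 lies on the minus strand of NC_046099.1, from 5174680 to 5190650.

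CNTRL, or centriolin, also of the subdistal appendages, rose at the first step and was not called after it. Its libraries were at 15.1, 14.7 and 12.3 CPM at T27, 25.3, 28.8 and 21.5 CPM at T28, 19.5, 25.6 and 21.9 CPM at T29, and 24.2, 19.98 and 23.5 CPM at T30. All later libraries lay above T27 and overlapped each other. It rose 1.79-fold at the first step (log2 0.84, SE 0.14, edgeR adjusted p 0.000522). CEP83, the base of the distal appendages, rose 1.75-fold to 64.5 ± 4.96 CPM at T28 and then fell at both later steps, to 30.6 ± 4.25 CPM (SD, n = 3). That it ended below T27 (log2 −0.27) was not called without any 1 of the 3 T27 libraries, T30 replicate 1 or T30 replicate 2 (edgeR adjusted p 0.0541 to 0.127).

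CEP164, the distal appendage protein that recruits the kinase for ciliogenesis, was highest at the end. It was at 63.3, 60.4 and 64.95 CPM at T27, 72.9, 73.7 and 64.8 CPM at T28, 53.5, 60.6 and 56.9 CPM at T29, and 86.0, 77.45 and 92.3 CPM at T30. The T30 libraries lay above all others. It rose 1.496-fold at the last step (log2 0.58, SE 0.08, edgeR adjusted p 2.42e-05), after a fall of 0.31 at the middle step that was not called when T28 replicates 1 or 2, or T29 replicates 1 or 3, were left out (edgeR adjusted p 0.0521 to 0.0973).

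CEP350, which binds microtubules at the centriole, was at 64.8, 60.6 and 54.1 CPM at T27, 72.1, 69.2 and 75.5 CPM at T28, 74.8, 71.6 and 63.3 CPM at T29, and 106, 96.5 and 98.3 CPM at T30. Again T30 stood above every other library. It rose 1.44-fold at the last step (log2 0.52, SE 0.08, edgeR adjusted p 7.96e-05), and its rise at the first step (log2 0.27) was lost without T27 replicate 2, T27 replicate 3, T28 replicate 1 or T28 replicate 3 (edgeR adjusted p 0.0626 to 0.113). CEP19, a partner of CEP350 in ciliogenesis, was at 10.98, 7.61 and 9.49 CPM at T27, 10.98, 10.8 and 11.71 CPM at T28, 15.3, 12.6 and 13.04 CPM at T29, and 15.1, 17.3 and 13.8 CPM at T30. Neighbouring stages overlapped except T28 and T29, and no step was called, while T30 was 1.64-fold above T27 (log2 0.72, SE 0.14, edgeR adjusted p 0.000396). CEP112 rose from 3.92 ± 0.609 to 8.06 ± 0.391 CPM at the first step and went from 10.4 ± 1.71 to 5.61 ± 0.368 CPM (SD, n = 3) at the last, still above T27.

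Of the centriolar satellites, granules that carry proteins to the centrosome and the cilium base, both genes with a row were higher at T30 than at T27. PCM1, the scaffold of the satellites, was at 401, 352 and 368 CPM at T27, 476, 489 and 499 CPM at T28, 444, 459 and 427 CPM at T29, and 442, 469 and 469.8 CPM at T30. Every later library lay above T27. PCM1 rose 1.31-fold at the first step (log2 0.38, SE 0.07, edgeR adjusted p 0.00141) and was not called at either later step. CEP290, of the transition zone of the cilium and of satellites, was at 55.3, 57.1 and 49.7 CPM at T27, 57.4, 61.9 and 47.5 CPM at T28, 43.5, 53.7 and 51.9 CPM at T29, and 107, 71.0 and 118 CPM at T30. T30 replicate 2 stood well below the other T30 libraries and still above every earlier one. CEP290 rose 1.99-fold at the last step (log2 0.99, SE 0.16, edgeR adjusted p 7.01e-05), from 49.7 ± 5.46 to 98.9 ± 24.8 CPM (SD, n = 3).

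The gamma-tubulin ring complex, which starts new microtubules, had 6 genes with a row, and 5 were lower and 1 higher at T30 than at T27. TUBG1, gamma-tubulin itself, was at 100.1, 99.4 and 113 CPM at T27, 109, 99.8 and 112 CPM at T28, 85.8, 95.2 and 96.2 CPM at T29, and 47.9, 59.0 and 65.8 CPM at T30. T27 and T28 overlapped, T29 lay just below both and T30 below all. TUBG1 fell by 0.68 on the log2 scale at the last step (SE 0.10, edgeR adjusted p 4.69e-05), to 57.6 ± 9.04 CPM (SD, n = 3). NEDD1, which tethers the complex to the centrosome, was at 36.3, 36.02 and 34.5 CPM at T27, 34.3, 29.3 and 32.4 CPM at T28, 29.5, 30.5 and 30.05 CPM at T29, and 23.1, 25.6 and 23.5 CPM at T30. T30 was again below all other libraries. NEDD1 fell by 0.32 at the last step (SE 0.08, edgeR adjusted p 0.00434).

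Of the TUBGCP genes, which encode the other subunits of the ring, TUBGCP2, TUBGCP3 and TUBGCP4 fell by 0.31, 0.42 and 0.96 on the log2 scale at the last step. TUBGCP3 had also fallen at the middle step (log2 −0.41, SE 0.09, edgeR adjusted p 0.00721), a call kept whichever library was left out. TUBGCP4 also fell at the first step (log2 −0.26), a call lost without T27 replicates 2 or 3, any 1 of the 3 T28 libraries or T30 replicate 3 (edgeR adjusted p 0.0501 to 0.16). TUBGCP6 did not pass the test for a change between any stages (edgeR adjusted p 0.0564). It was called higher at the last step (log2 change 0.19) and over the span (log2 change 0.18). Those calls were lost without any 1 T29 library, T30 replicate 2 or T30 replicate 3 (edgeR adjusted p 0.0556 to 0.0898), and without T27 replicates 2 or 3, any 1 T28 library or T30 replicate 2 (edgeR adjusted p 0.053 to 0.151).

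Augmin, the HAUS complex, branches new microtubules off those of the spindle, and all 5 of its genes with a row fell at the last step and over the span. Their median log2 change from T27 to T30, −2.08, was the lowest of the roles with 5 or more genes. HAUS4 was at 30.5, 32.0 and 37.4 CPM at T27, 28.6, 29.1 and 25.1 CPM at T28, 16.8, 22.5 and 23.1 CPM at T29, and 5.71, 7.31 and 8.72 CPM at T30. No neighbouring stages overlapped. HAUS4 was not called at the first or middle step and was 4.61-fold lower at T30 than at T27 (log2 −2.20, SE 0.16, edgeR adjusted p 1.47e-08).

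HAUS8 was at 18.6, 19.8 and 20.2 CPM at T27, 14.3, 14.2 and 15.2 CPM at T28, 10.7, 11.1 and 11.58 CPM at T29, and 4.23, 4.49 and 4.73 CPM at T30. It was lower at each stage than at the one before, with no overlap, and alone of the 46 genes it fell at all 3 steps. The span gave a log2 change of −2.12 (SE 0.11, edgeR adjusted p 2.88e-10), and the middle fall was lost when any 1 T28 library or T29 replicates 1 or 2 were left out (edgeR adjusted p 0.0502 to 0.0768). HAUS2 was at 37.9, 32.8 and 40.5 CPM at T27, 34.4, 33.3 and 34.2 CPM at T28, 24.0, 22.7 and 24.2 CPM at T29, and 8.32, 8.52 and 9.38 CPM at T30. T27 and T28 overlapped and each later stage lay lower. HAUS2 fell by 0.52 at the middle step (SE 0.09, edgeR adjusted p 0.00259) and by 1.44 at the last (SE 0.10, edgeR adjusted p 2.21e-08).

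HAUS6 fell by 1.11 and HAUS1 by 0.63 on the log2 scale at the last step. The HAUS6 fall at the middle step (log2 −0.27) was not called without any 1 of the 6 T28 and T29 libraries (edgeR adjusted p 0.0581 to 0.128). HAUS1 shares 48.6% of its exon bases with LOC116941933 on the opposite strand, so its value is uncertain. That gene held 2278 counts beside 7097 for HAUS1.

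CEP55, which acts at the midbody when daughter cells separate, had the steepest fall of the 46 genes over the span. It was at 30.5, 36.6 and 35.8 CPM at T27, 31.4, 32.8 and 29.1 CPM at T28, 19.97, 20.1 and 23.7 CPM at T29, and 5.09, 5.39 and 5.35 CPM at T30. T27 and T28 overlapped, and T29 and T30 each lay below the stage before. CEP55 was 6.49-fold lower at T30 than at T27 (log2 −2.70, SE 0.11, edgeR adjusted p 4.98e-11), and its last step alone was a log2 change of −2.01 (SE 0.11). CEP70 was the gene of the matrix and linker list with a row, and it fell by 0.76 on the log2 scale at the last step, to 3.63 ± 0.21 CPM (SD, n = 3).

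The remaining names were SSNA1, CEP95, CEP20, CEP43 and AZI2. CEP20, a small protein of basal bodies and satellites, was at 30.9, 29.3 and 36.8 CPM at T27, 33.6, 31.8 and 32.3 CPM at T28, 26.4, 26.7 and 32.9 CPM at T29, and 10.4, 10.3 and 12.8 CPM at T30. The first 3 stages overlapped and T30 lay apart. CEP20 fell by 1.37 on the log2 scale at the last step (SE 0.12, edgeR adjusted p 3.65e-07). SSNA1, which binds and stabilises microtubules, was at 38.5 ± 4.18, 50.1 ± 1.95, 63.0 ± 1.48 and 27.3 ± 5.56 CPM (SD, n = 3) at the successive stages. Its first rise was lost without T27 replicate 2 or any 1 of the 3 T28 libraries (edgeR adjusted p 0.0539 to 0.137).

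CEP95 rose 1.49-fold and then fell by 1.11 on the log2 scale, and 10.2% of its exon bases overlap LOC116949646 on the opposite strand, which held 27932 counts beside 20465. CEP43, which works in anchoring microtubules and in early ciliogenesis, rose 1.36-fold at the first step. That it was higher at T30 than at T27 (log2 0.23) was lost without T27 replicate 1, T27 replicate 2 or T30 replicate 3 (edgeR adjusted p 0.0553 to 0.107). AZI2 had stage means of 35.6 to 37.0 CPM from T27 to T29 and rose 1.44-fold at the last step.

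A rise at the first step followed by a fall at the last described 16 of the 46 genes, or 34.8%, where 490 of all 16526 genes tested, 2.97%, had both calls and a difference between the steps that itself passed the test. The 16 were NEK2, CEP128, POC1A, POC5, CEP44, CEP112, CEP152, SPICE1, CEP95, SSNA1, CEP78, CEP120, CEP83, CEP41, NEK10 and CEP97. At the middle step 3 of them fell (CEP152, CEP120 and CEP83) and 13 were not called. At T30, 11 were below T27, 2 above (CEP112 and CEP41), and 3 were not called (NEK10, CEP128 and CEP97). The last step differed from the first in 37 of the 46 genes, 34 of them with the more negative last step. Of all 16526 genes tested, 44.8% differed in either direction, and 4017 differed with the more negative last step. The count of 16 was 10 without T27 replicate 2, 21.7% of the 46 beside 2.07% of all genes.

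A further 13 genes were not called at the first step and fell at the last (28.3% of the 46, 20.5% of all genes), among them TUBG1, NEDD1, CETN3, CEP20, CEP55 and 4 of the augmin genes.

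Within stages the libraries of these 16 genes were not scattered evenly. T29 replicate 1 was the lowest T29 library in 12 and T29 replicate 3 the highest in 13. T27 replicate 1, which lay closest to T28 on the first component, was the highest T27 library in 9, and T27 replicate 2 the lowest in 10. T27 replicate 3, which lay farthest from T28 on that component, was the highest T27 library in 7. T28 replicate 3 was the lowest T28 library in 11, and T30 replicate 3 the highest T30 library in 12. The same counts were not made over other genes, and the 16 were picked by their values in these libraries. Whether the uneven scatter is a trait of these genes or a shift of whole libraries was therefore not tested. The sum over 5 pigment cell markers, of 6 listed, was highest at T29. It was 1.04 to 2.14 CPM at T27, 13.4 to 15.7 CPM at T28, 19.7 to 24.3 CPM at T29 and 10.1 to 11.3 CPM at T30. All 5 rose at the first step, 3 of 5 fell at the last, and all 5 were higher at T30 than at T27 (median log2 change 2.99). Of all genes tested, 14.3% rose at the first step and 30.1% fell at the last. At T30 against T27, 34.8% of all genes were higher and 34.1% lower. Of the 16 genes, 11 were lower and 2 higher at T30 than at T27. The part of pigment cells in the result was not tested.

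**Figure D3:**
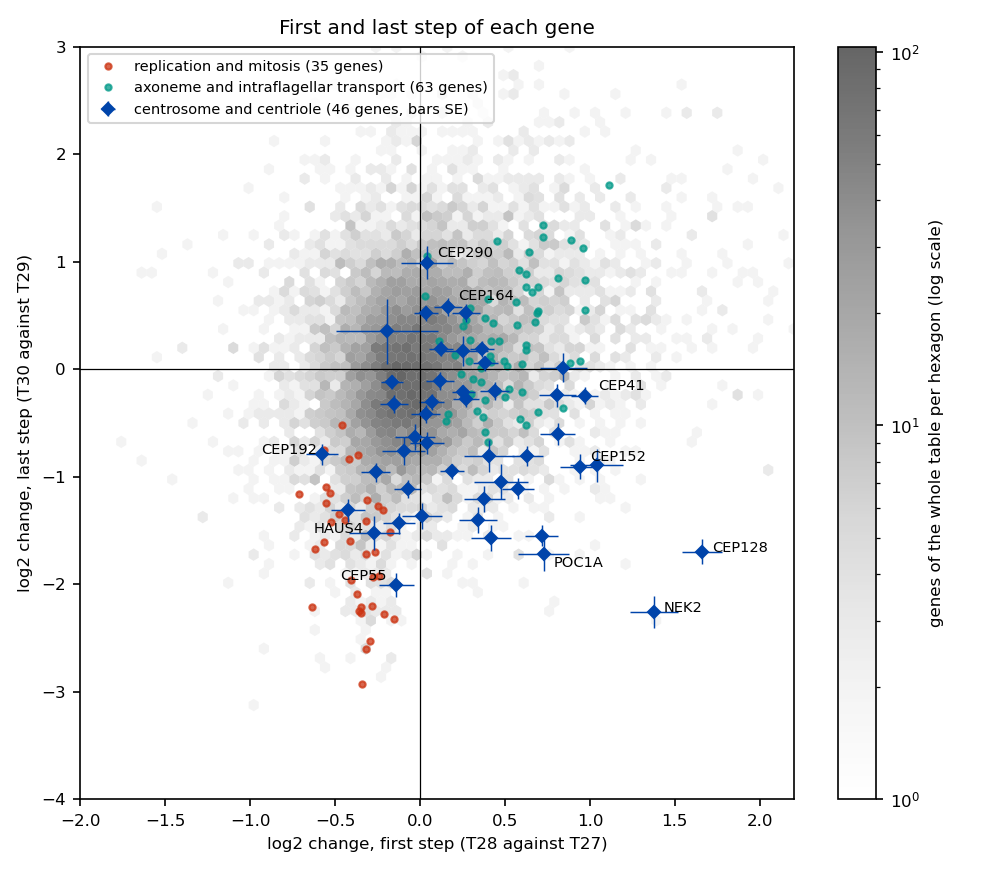
Each point is a gene, with its log2 change from T27 to T28 on the horizontal axis and from T29 to T30 on the vertical axis. Blue diamonds with SE bars are the 46 centrosome and centriole genes, red points 35 replication and mitosis genes, green points 63 axoneme and intraflagellar transport genes, and grey hexagons all genes within the axis limits. The diamonds of NEK2, CEP128 and POC1A lie at the lower right, with a rise and then a fall, and the red points at the lower left.

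Lists of genes of division and of cilia were set beside the 46. Of all genes tested, 14.3% rose and 11.8% fell at the first step, 7.86% and 5.54% at the middle step, and 30.3% and 30.1% at the last. None of 35 DNA replication and mitosis genes rose at any step. They fell in 25, 25 and 35 cases at the successive steps, with median log2 changes of −0.36, −0.40 and −1.61, and their sum went from 4780 to 5225 CPM at T27 to 861 to 975 CPM at T30. Of 63 genes of the axoneme and of intraflagellar transport, the cargo system that builds cilia, 53 rose and 0 fell at the first step, 18 rose and 0 fell at the middle step, and 29 rose and 12 fell at the last. Their sum went from 2168 to 2674 CPM at T27 to 4954 to 5573 CPM at T30. The rise followed by a fall was seen in 0 of 35 replication and mitosis genes and in 10 of 63 axoneme and transport genes. It was seen in 2.97% of all genes tested.

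Other centrosome genes, outside the name rule, numbered 28 with a row of 47 listed. At the first step 10 rose and 2 fell (median log2 change 0.25), beside 14.3% and 11.8% of all genes tested (median −0.02). At the last 7 rose and 14 fell (median −0.30), beside 30.3% and 30.1% (median 0.02). The rise followed by a fall was found in 9 of the 28, beside 2.97% of all genes tested. ODF2, the appendage protein on which others are built, went from 53.2 ± 5.37 to 108.2 ± 9.67 CPM at the first step and from 124.1 ± 22.0 to 41.2 ± 1.89 CPM (SD, n = 3) at the last. CCP110, the cap that is removed when a cilium forms, rose 1.44-fold at the first step and 2.06-fold at the last, to 100.9 ± 10.5 CPM. AKAP9, a scaffold of the centrosome and the Golgi, rose 2.33-fold at the last step.

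Regulators that switch on centriole amplification in multiciliated cells were scarcely covered by name. Of 12 listed beside the name rule, MYB, CCDC78 and TRRAP had a row. CCDC78, a protein of the structures from which multiciliated cells make centrioles, rose at each of the 3 steps, through 28.5 ± 4.32, 51.0 ± 3.60, 80.2 ± 7.55 and 99.4 ± 3.24 CPM (SD, n = 3). MYB, a factor of dividing and of differentiating multiciliated cells, fell by 1.07 on the log2 scale at the middle step, from 52.5 ± 2.30 to 25.03 ± 3.20 CPM. TRRAP, a chromatin cofactor, went through 105.4 ± 5.21, 85.8 ± 1.66, 72.7 ± 4.81 and 85.1 ± 7.72 CPM (SD, n = 3). It fell at the first step (log2 −0.30, SE 0.08, edgeR adjusted p 0.0107) and rose at the last (log2 0.23, SE 0.08, edgeR adjusted p 0.0183).

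**Figure D4:**
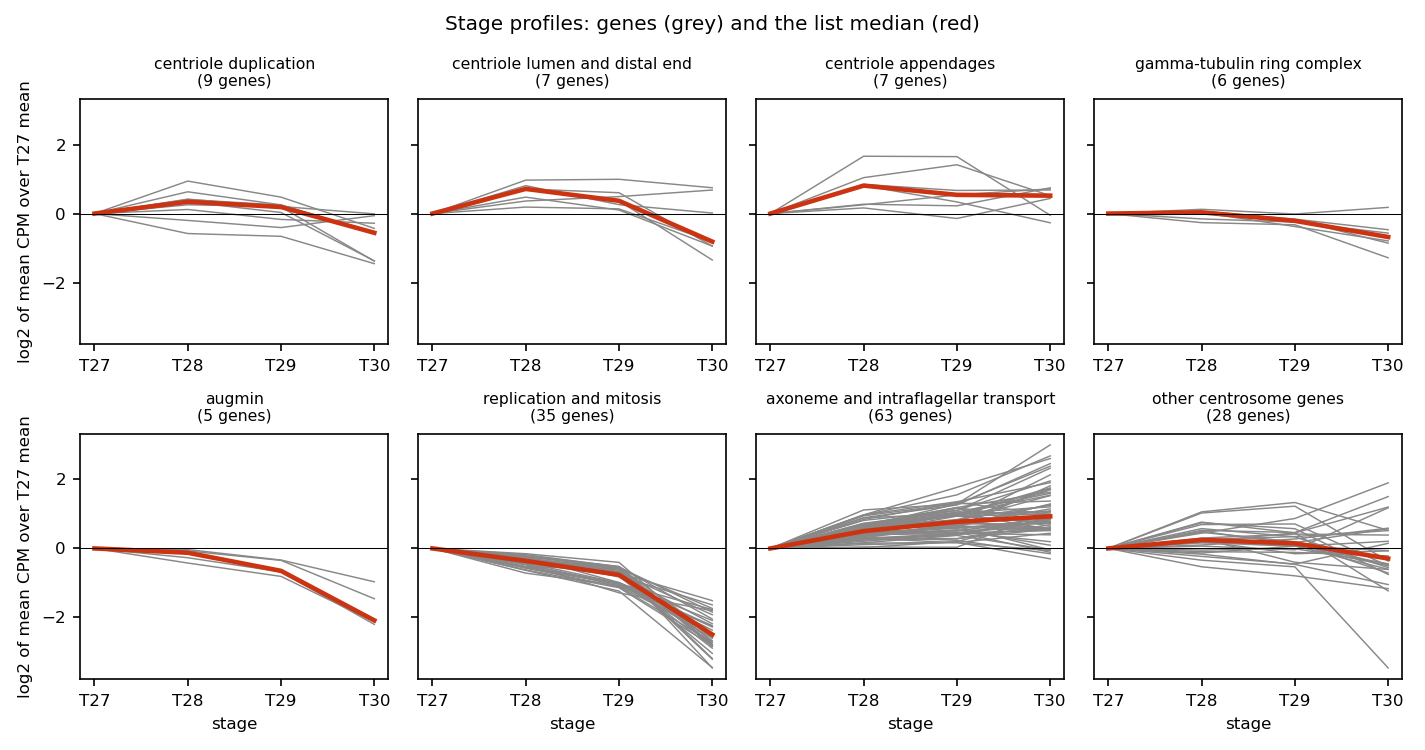
Each panel is a list of genes, with the stage on the horizontal axis and the log2 ratio of the mean CPM to that at T27 on the vertical axis. Grey lines are genes and the red line is their median. Medians of the duplication, lumen and appendage lists are highest at T28, those of augmin and of replication and mitosis decline to T30, and that of the axoneme list climbs.

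Compared per kilobase of exon, the levels of the 46 genes spanned a wide range. PCM1 had the highest mean over the stages, at 59.3 CPM per kilobase, followed by CETN3 at 52.4, TUBG1 at 47.5, CEP20 at 32.8 and NEK2 at 28.2 CPM per kilobase. CEP85L was lowest at 0.472 CPM per kilobase. The order among the abundant genes changed with stage, since CETN3, TUBG1, CEP20 and NEK2 were all lower at T30 than at T27 while PCM1 was higher. Exon length ran from 797 bp in CEP20 to 15640 bp in CEP192, with a median of 3552 bp beside 3166 bp over all genes tested. The 46 genes lay on 33 sequences of the assembly.

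**Figure D5:**
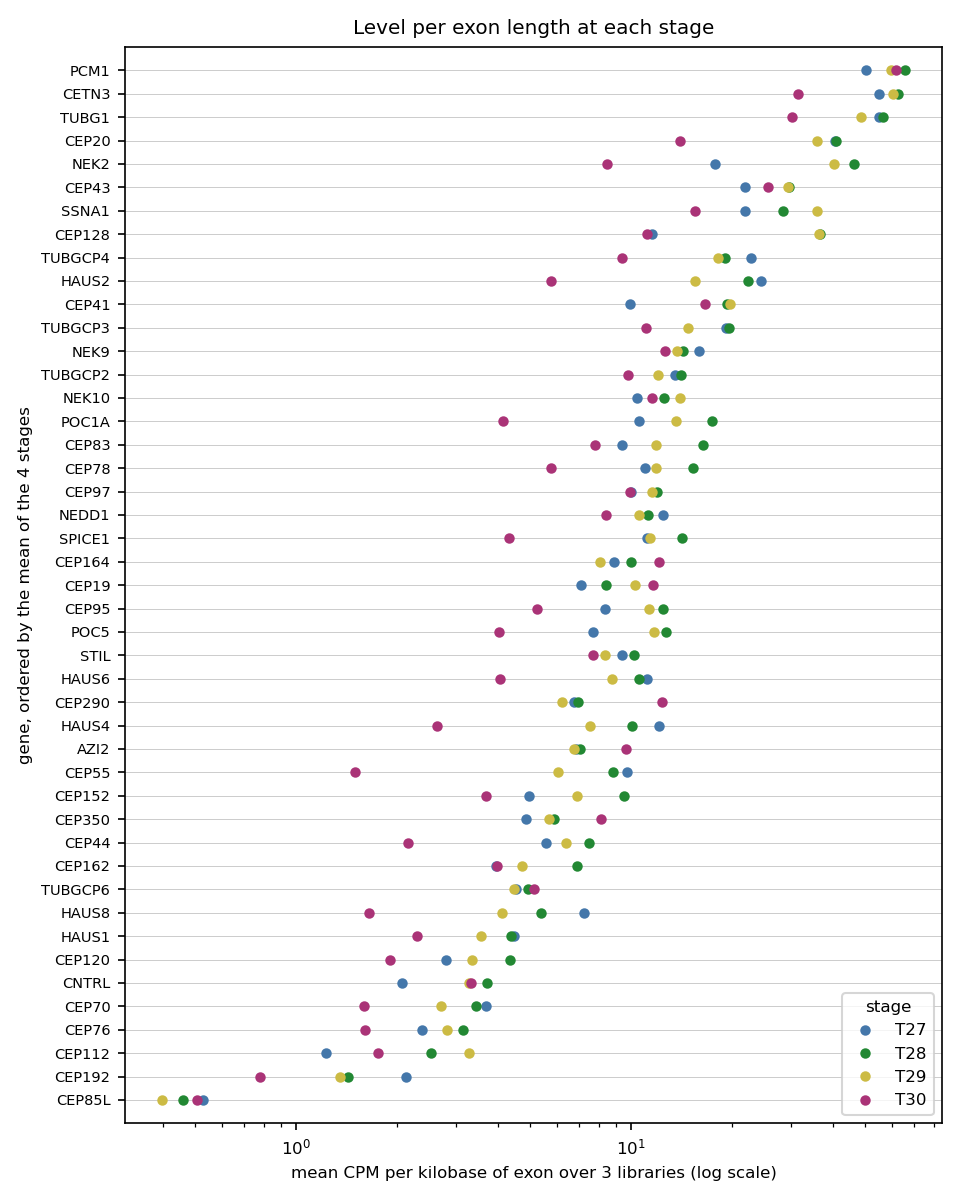
Each row is a gene, with 45 of the 46 shown, ordered by its mean level over the 4 stages, and each point is the mean CPM per kilobase of exon of 3 libraries at a stage, on a log axis. PCM1 is at the top and CEP85L at the bottom, and the T30 points lie left of the others in most rows.

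Of the 46 genes, 4 had scores in the authors' cross-species comparison, with no replicate. By their values the scores appear standardised within each gene over Ciona, the lamprey stages and zebrafish, though their making is not given. TUBG1 had its highest score in Ciona, 1.23, and its lowest at T30, −1.76. CETN3 and CEP76 were also highest in Ciona, at 1.74 and 1.7, and lowest at T30, at −1.27 and −1.16. SSNA1 was highest at T29, at 1.15, with zebrafish at 0.99 and T30 at −1.12. No test was made of these scores.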

How the data were processed

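For 12 libraries the authors deposited counts of reads per gene, not normalized, and, in a second table, a score (a z-score by its values) per gene for the lamprey stages, Ciona and zebrafish, whose making is not given in the sources used here. Per the file headers, the counts came from featureCounts 1.6.3 on a kPetMar1 annotation, with no strand, pair or multi-mapping option, and exon lengths came from the same source. Bowtie2 and DESeq2 are named too, per the submitters' processing notes. Bowtie2 does not split reads over introns, which lowers the counts of genes made of short exons. Whether it does so equally at every stage was not tested.

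Counts were filtered with filterByExpr by stage (minimum count 10), scaled by TMM and fitted in 1 model of the 12 libraries (R 4.3.3, edgeR 4.0.16, quasi-likelihood test, 8 residual degrees of freedom, Benjamini-Hochberg over 16526 genes, threshold 0.05, biological coefficient of variation 12.4%). The standard error (SE) of a log2 change is its size divided by the square root of F. DESeq2 1.42.0, RLE scaling, no filter, a replicate block, fits of both stages alone and leaving out each library were alternatives. Libraries of a stage differed by more than sampling noise (chi-square per degree of freedom 11 to 67.8), so none was counted as one library under different names. Whether they are repeat preparations of one source is not given.

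The 46 genes and the lists were chosen with earlier results of these data known. Genes given in every library were 20 fixed names, of which 9 had a row, the 5 largest rises and falls over the span, the 2 largest at each step, and the 5 highest levels per length. PLK4, SASS6, CENPJ, PCNT, CDK5RAP2, CETN2, DEUP1, MCIDAS, CCNO, GMNC and POC1B are not analysed here, nor are promoter motifs. Of the 46 genes, 1 is counted but not reported here by name. ODF2, CCP110, AKAP9, NPHP4, CCDC66, PLK1, CKAP5, CCDC78, MYB and TRRAP were chosen after their values were seen.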

Additional observations from a re-analysis of the deposited data

Results flagged for a closer look

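For 16 genes the change from T29 to T30 differed from the change from T27 to T28 and ran against it, by a test of the difference itself. The 16 were chosen as called higher at the first step and lower at the last, so that test adds no independent support. The difference between the steps, on the log2 scale and edgeR's quasi-likelihood contrast, was −3.63 for NEK2, −3.36 for CEP128, −2.44 for POC1A and −2.26 for POC5. It was −1.99 for CEP44, −1.93 for CEP112, −1.85 for CEP152, −1.74 for SPICE1, −1.69 for CEP95, −1.59 for SSNA1 and −1.52 for CEP78. For CEP120, CEP83, CEP41, NEK10 and CEP97 it was −1.44, −1.42, −1.21, −0.55 and −0.471. The rise was lost for 6 of them without T27 replicate 2 (SPICE1, SSNA1, CEP44, NEK10, CEP78 and CEP97).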

How the results depend on the processing

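No called change of the 46 genes reversed under the 17 alternatives, and RLE scaling moved none of 230 values (46 genes in 5 contrasts) across the threshold. Leaving out a library in turn, genes higher and lower at the first step numbered 15 to 24 and 2 to 3, at the middle step 0 to 1 and 5 to 12, at the last step 4 to 6 and 31 to 34, and over the span 10 to 12 and 28 to 29. Genes changed between any stages numbered 44 to 45, those whose steps differed 37 to 38, and those with a rise and then a fall 10 to 19, a count tried after seeing the data. Falls at the middle step were 6, 5 and 5 (11 with all libraries) without T28 replicate 1, T28 replicate 2 and T29 replicate 1, and rises were 1 (0 with all libraries) in the fit of both stages alone and without T30 replicate 1 or T30 replicate 2. The cause was not tested, beyond fewer samples in each fit. Calls kept whichever library was left out were 17 of 25, 5 of 11, 35 of 38 and 38 of 41 at the successive steps and over the span. With no filter 3 calls were lost, and the fits of both stages alone lost 6 and gained 3. DESeq2 gained 3 calls (CEP76, CETN3 and, at the middle step, TUBGCP2 with adjusted p 0.0353).

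Replicate numbers did not pair the libraries throughout: of 18 pairs of libraries with the same number, 4 had deviations correlated above 0.1 (range −0.289 to 0.241). Replicate 3 of T27 correlated with that of T29 at 0.241 and of T30 at 0.106, and T29 with T30 at 0.191. Replicate 1 of T29 correlated with that of T30 at 0.139. T28 replicate 3 correlated with T29 replicate 3 at −0.289, and with T29 replicate 1, of another number, at 0.239. Pairs of differing number above 0.1 also included T28 replicate 1 with T29 replicate 3 (0.169) and T28 replicate 3 with T30 replicate 1 (0.133). A factor shared by replicate 3 of T27, T29 and T30 was not tested. With the replicate block, TUBGCP4 at the first step (edgeR adjusted p 0.0515), STIL at the middle step (0.0545) and TUBGCP6 over the span (0.0563) lost their calls, CEP43 gained one at the last step (0.0252), and 17 genes rose and then fell. Genes at a few CPM, such as CEP85L, rest on few counts, and small changes there were not detectable at this depth.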

Other observations

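Locus rows that the RefSeq gene table names as CEP131 and NEK7 fall outside the name rule. CEP131, of the centriolar satellites, was at 20.1 ± 1.72 CPM (SD, n = 3) in T27 and at 37.9 ± 3.002 CPM in T30 (log2 change 0.92, SE 0.11, edgeR adjusted p 3.84e-06). NEK7, a mitotic kinase in other vertebrates, went from 44.1 ± 1.76 to 30.4 ± 3.68 CPM (log2 change −0.54, SE 0.09, edgeR adjusted p 0.000104). For neither did the last step differ from the first by the test (edgeR adjusted p 0.722 and 0.804).

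Among the other centrosome genes, NPHP4, of the ciliary transition zone, rose 3.73-fold from T27 to T30, from 6.29 ± 0.556 to 23.4 ± 2.79 CPM (SD, n = 3), and CCDC66, of satellites and cilia, rose 2.29-fold. The mitotic kinase PLK1 and the spindle protein CKAP5 had log2 changes of −3.46 (SE 0.10) and −1.05 (SE 0.07) over the same span. NPHP4 had the highest and PLK1 the lowest change of that list over the span, and PLK1 is also on the replication and mitosis list.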
